A study of Mus musculus with 8 samples.

Results

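The comparison described here sets Tet1 knockout kidneys (KO-I/R 3D, below the injured KO) against wildtype kidneys (WT-I/R 3D, the injured WT), both on day 3 after ischemia. It takes 4 of the 8 libraries of the series and the 15650 of 55919 genes that reached at least 1 FPKM (fragments per kilobase of gene, scaled to depth) in at least 2 libraries. All mice were female, of the strain C57BL/6 x 129S4/SvJae, and matched for age, which the labels do not state. The KO mice were Tet1-/- for the germline allele Tet1tm1.1Jae, so every cell type carried the deletion, and the WT mice were Tet1+/+ littermates. In both injured groups the left renal pedicle was clamped for 45 min and the kidney was taken on day 3 of reperfusion. WT-NI and KO-NI are the kidneys of the same genotypes without injury. Each library was made from pooled RNA of 3 mice and each group has 2 libraries, so differences between single mice are not seen. The standard error given comes from the spread between pools within groups, shared over all 8 libraries, and not from the injured pools alone.

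Tet1 is a dioxygenase that oxidizes 5-methylcytosine in DNA, mostly in CpG-rich stretches, and so takes part in removing DNA methylation. Clamping the renal pedicle harms the tubules first. The proximal tubule, which reabsorbs most of the filtrate and burns fatty acids to do so, and the thick ascending limb of the loop of Henle, which moves salt at low oxygen, are the segments known for being hurt. Surviving tubule cells lose their transporters, make injury proteins such as Kim1 (gene Havcr1) and Ngal (gene Lcn2), divide, and draw monocytes with chemokines, all of which is under way on day 3. The comparison asks how far this state differed when Tet1 was missing.

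Tet1 itself was listed at 0.243 and 0.313 FPKM (66 and 89 reads) in the injured WT and at 0.189 and 0.159 FPKM (51 and 51 reads) in the libraries given as injured KO. The groups did not overlap, the difference was small, and it did not pass limma voom on the recovered reads (log2 difference -0.67, standard error 0.30, adjusted p = 0.257). The value covers the whole gene and therefore does not check a deletion of part of it. The study described Tet1 mRNA in KO kidneys as barely detectable, and these whole-gene values do not show such a loss. Without injury the libraries labelled KO-NI lay above WT-NI, 0.551 and 0.382 against 0.378 and 0.323 FPKM. Reads per library ran from 13961281 to 18480858. One library outside the comparison, KO-NI 1, stood apart with 10.9% mitochondrial reads against 7.44% to 7.70% in the other non-injured libraries, and it enters the estimate of the spread. Kidney segment markers such as Umod, Slc34a1 and Aqp2 were at 894 to 1616, 289 to 698 and 117 to 444 FPKM in the injured libraries.

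No single gene passed limma, which was fitted on log2(FPKM + 0.1) of all 8 libraries and adjusted over all genes tested. At an adjusted p under 0.05 and a difference over 0.5 in log2, 0 of 15650 genes (0%) were called higher and 0 (0%) lower in the injured KO, and the smallest adjusted p was 0.0862, shared by 79 genes. At an unadjusted p under 0.05, 878 genes were higher and 1776 lower. Limma voom, which weights the recovered reads by their precision, called 87 of 18252 genes (0.477%) higher and 298 (1.63%) lower. The calls also depended on the KO-NI libraries, which are in neither group: without KO-NI 1 limma called 109 genes higher and 546 lower, without KO-NI 2 111 and 551, and 108 and 545 of these were the same genes. The KO-NI group is then 1 library, assumed to vary like the other groups. Without KO pool 1 it called 0 and 15. Values below are therefore given for each library, "passed" is written of limma voom unless another test is named, and "separated" means that both injured KO pools lay on one side of both injured WT pools. Separated genes made up 28.0% of all genes tested on the higher side and 29.5% on the lower, so separation of a single gene carries little weight. With a difference over 0.5 in log2 as well, 1148 genes (7.34%) were higher and 1673 (10.7%) lower. The excess of lower genes depended on scaling: with TPM, which scales each library to a common total and shifts the all-gene median by 0.13, the genes at an unadjusted p under 0.05 were 1982 higher and 1009 lower.

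**Figure D1:**
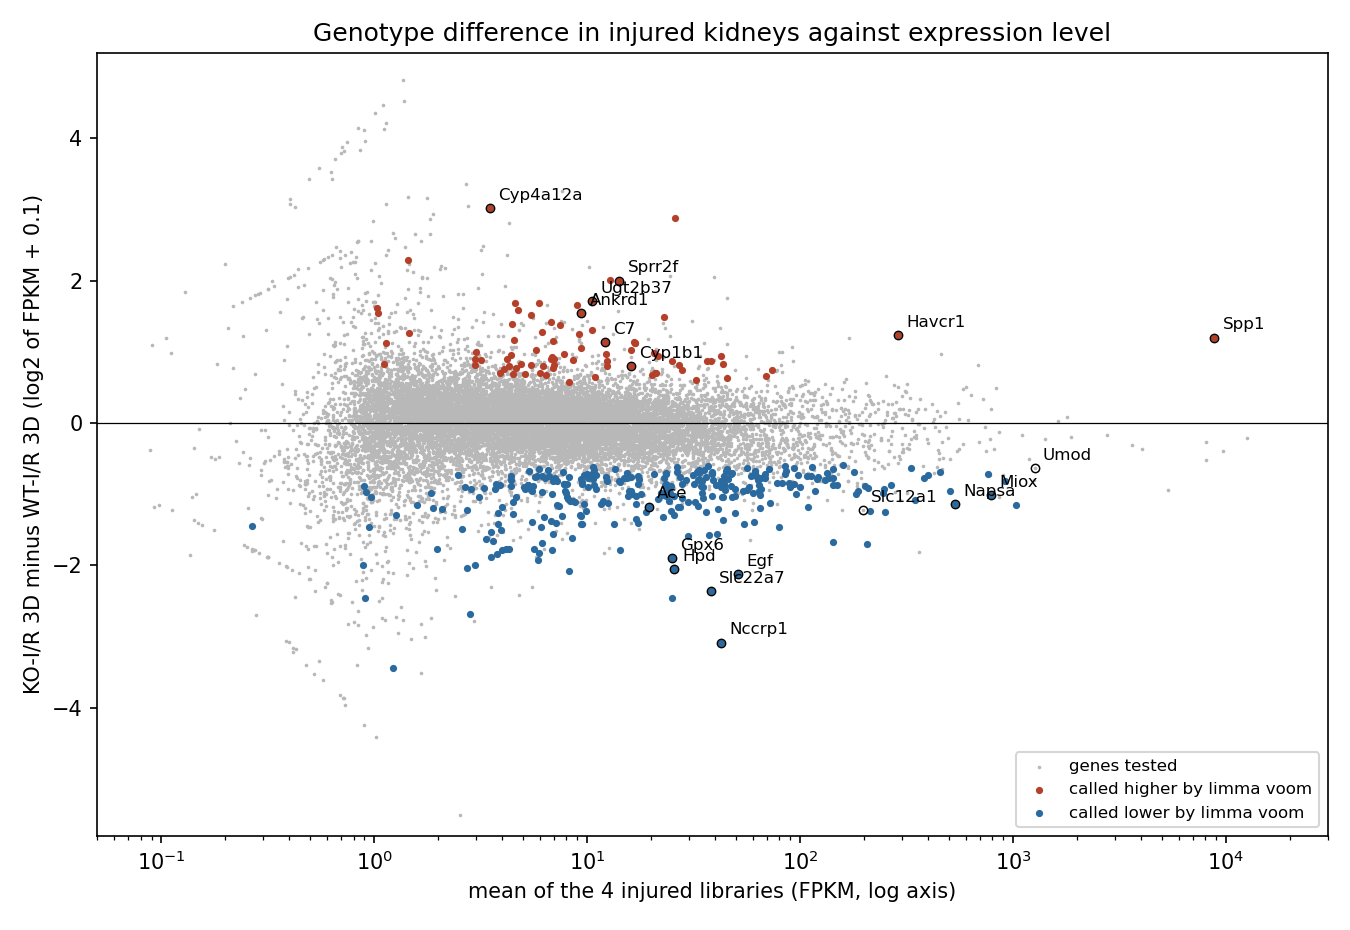
Each point is a gene tested, with the mean FPKM of the 4 injured libraries on a log axis and the difference, injured KO minus injured WT, in log2(FPKM + 0.1). Colours mark genes called by limma voom on the recovered reads and ringed points are named. Called genes are more numerous below 0 than above it, and at high levels most are lower (Napsa, Miox), with Spp1 and Havcr1 as higher ones.

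Of coding genes with a mean of at least 5 FPKM in the higher group, the largest difference upward was that of Cyp4a12a, a hydroxylase of fatty acids that in mice is known for its higher level in males. It was at 0.633 and 0.740 FPKM in WT against 5.87 and 6.68 in KO, 9.14-fold higher in the mean. The 2 groups lay far apart compared with the spread within each (log2 difference 3.02, standard error 0.36, limma adjusted p = 0.0862, limma voom adjusted p = 0.0178). Its near copy Cyp4a12b, whose reads can be mistaken for those of Cyp4a12a, was at 1.61 and 2.74 against 6.54 and 7.46 FPKM. Both also lay higher without injury, Cyp4a12a at 0.373 and 0.678 FPKM in WT-NI against 1.39 and 2.59 in KO-NI. Ugt2b37, a glucuronosyltransferase with close relatives in the genome, was at 3.63 and 6.36 against 18.1 and 14.0 FPKM (log2 difference 1.71, standard error 0.28, limma adjusted p = 0.0866) and passed. Unlike the Cyp4a12 genes, it lay near 1 FPKM in every non-injured library, between 0.808 and 1.08.

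Other leading genes encode epithelial, signalling and vascular proteins. Sprr2f, a cornified envelope protein, was at 4.39 and 6.77 FPKM in WT against 17.3 and 28.2 in KO, 4.08-fold higher, and at or near 0 in all non-injured libraries. It passed limma voom (adjusted p = 0.0236) but not limma (adjusted p = 0.117). Lif, a cytokine of the IL-6 family, was at 1.72 and 4.12 against 7.37 and 10.7 FPKM and passed. Osmr, the receptor of the related oncostatin M, was at 3.97 and 4.45 against 8.15 and 11.1 FPKM and passed (log2 difference 1.16, standard error 0.19). Ankrd1, a nuclear protein and well-known target of the coactivators YAP and TAZ, was at 3.56 and 6.19 against 12.8 and 15.1 FPKM and passed. Edn1, the vasoconstrictor endothelin, was at 2.10 and 5.66 against 8.12 and 11.3 FPKM and did not pass (limma voom adjusted p = 0.0661). In each of these genes WT pool 2 lay nearer to the KO pools than WT pool 1 did.

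Of proteins made for the blood, the fibrinogen chain Fgb was at 1.86 and 3.75 FPKM in WT against 5.81 and 10.4 in the injured KO and passed narrowly (limma voom adjusted p = 0.0499). Fgg, the partner chain, was at 10.3 and 25.4 against 38.2 and 50.05 FPKM and did not pass (limma voom adjusted p = 0.0548). Serpina10, an inhibitor of coagulation factors, was at 8.09 and 16.1 against 24.3 and 43.1 FPKM and passed. Lsm5, of the ring that binds U6 RNA and decaying mRNA, was at 2.58 and 5.76 against 13.5 and 8.31 FPKM and did not pass. Without injury its KO values were the lower ones, 1.58 and 1.71 FPKM in WT-NI against 0.896 and 0.644 in KO-NI. Several genes had tight values in both groups. Cyp1b1 was at 12.0 and 11.4 against 19.3 and 21.6 FPKM, the complement protein C7 at 6.94 and 8.17 against 15.6 and 17.8, the metalloreductase Steap1 at 9.24 and 11.9 against 20.03 and 26.2, and Nfkbiz, a nuclear regulator of NF-kappa B, at 8.96 and 12.1 against 19.3 and 23.8. All 4 passed limma voom, each at an adjusted p = 0.0236.

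The largest difference downward by the same rule was that of Nccrp1, an F-box protein that binds glycoproteins. It was at 107 and 44.3 FPKM in WT against 15.8 and 4.02 in KO, 7.60-fold lower (log2 difference -3.09, standard error 0.65, limma adjusted p = 0.102, limma voom adjusted p = 0.0252). Within each group the pools differed by more than 2-fold, and without injury the 4 libraries lay at 32.7 to 46.5 FPKM. Slc22a7, the anion transporter OAT2 of the proximal tubule, was at 80.1 and 47.3 against 16.8 and 8.39 FPKM and passed, and stood at 173 to 186 FPKM in all 4 non-injured libraries. Hpd, a dioxygenase of tyrosine breakdown, was at 46.7 and 35.3 against 11.7 and 8.10 FPKM, 4.15-fold lower with a small spread (log2 difference -2.05, standard error 0.24, limma adjusted p = 0.0862, limma voom adjusted p = 0.0178). Hpd values of the KO were the lower ones without injury too, 104 and 118 FPKM in WT-NI against 63.1 and 84.7 in KO-NI.

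Egf, the growth factor that the thick ascending limb and distal tubule put out, was at 90.5 and 72.8 FPKM in WT against 29.1 and 11.8 in KO, 3.996-fold lower, and at 244 to 310 FPKM without injury in both genotypes. It passed limma voom (adjusted p = 0.0236). Pvalb, a calcium buffer of the distal convoluted tubule, was at 15.3 and 10.6 against 5.29 and 1.61 FPKM and passed. Slc4a1, the anion exchanger of acid-secreting intercalated cells and of red cells, was at 12.8 and 8.48 against 4.02 and 2.16 FPKM and passed. Gpx6, a glutathione peroxidase, was at 47.3 and 31.2 against 13.4 and 7.76 FPKM, and the proprotein convertase Pcsk6 at 11.7 and 7.04 against 3.06 and 2.01, and both passed. The phosphatase Dusp15 was at 6.72 and 4.44 against 1.87 and 1.06 FPKM and the phosphatase inhibitor Ppp1r1b at 27.2 and 16.9 against 8.70 and 4.38, and both passed. Lypd2 was at 14.8 and 4.24 against 1.44 and 1.63 FPKM and did not pass, the WT pools being far apart. mt-Co3, encoded on mitochondrial DNA, was at 484 and 632 against 216 and 115 FPKM, did not pass, and varied from 415 to 2511 FPKM over the non-injured libraries.

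**Figure D2:**
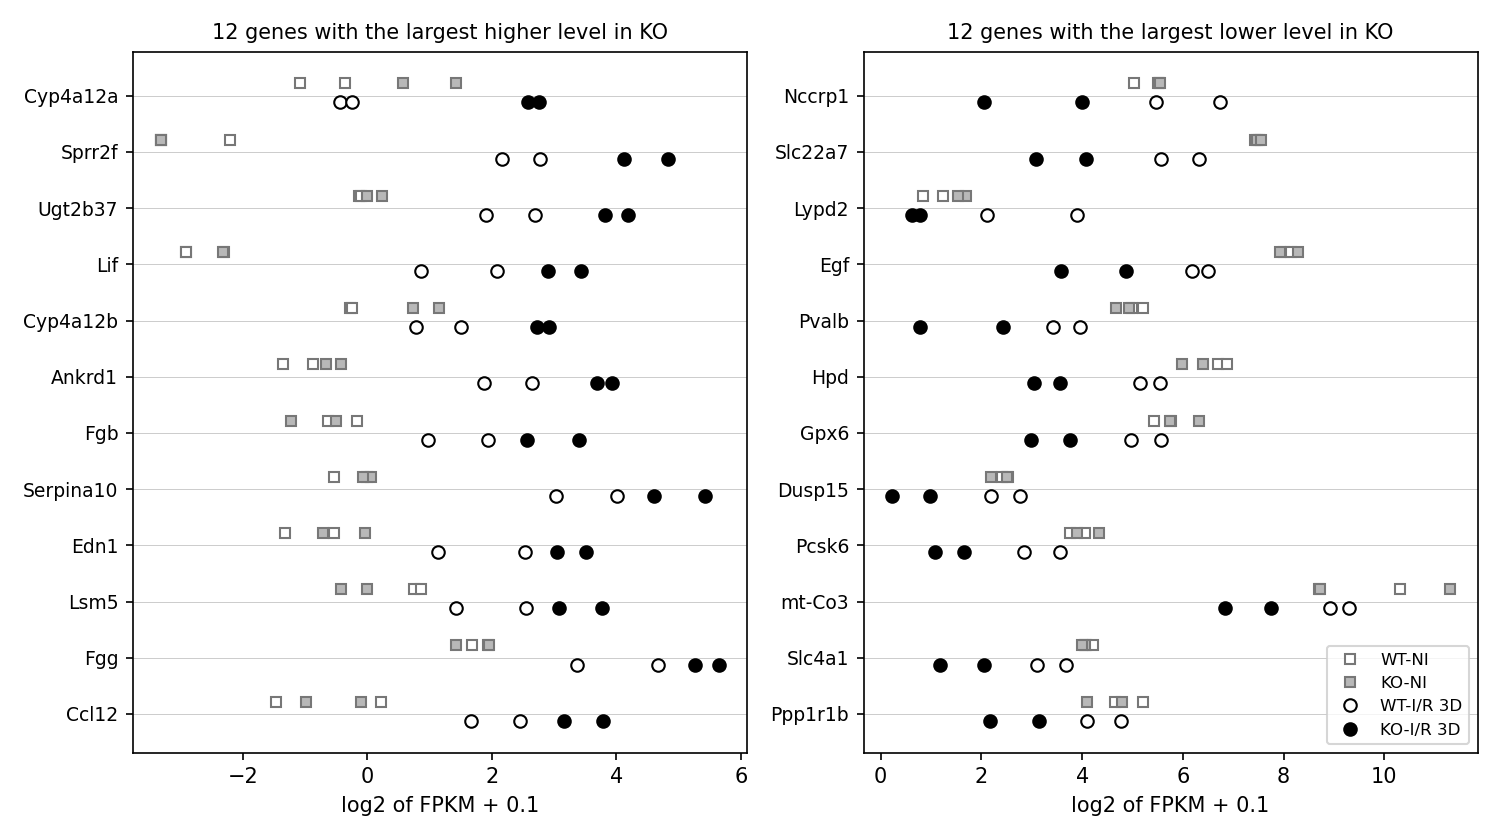
Each row is a gene and each symbol a library, on the axis log2(FPKM + 0.1); circles are injured and squares non-injured libraries, open or white for WT and filled for KO. In all 24 genes the filled circles lie on one side of the open ones, and for most of the lower genes the squares of both genotypes coincide.

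Some lower genes had almost no spread between pools. Ace, the angiotensin converting enzyme of the brush border and vessels, was at 26.3 and 27.8 FPKM in WT against 12.0 and 11.8 in KO (2.27-fold lower, log2 difference -1.18, standard error 0.10, limma adjusted p = 0.0862, limma voom adjusted p = 0.0178). Treh, the trehalase of the brush border, was at 21.6 and 20.9 against 10.6 and 11.2 FPKM, and Cdhr2, a cadherin that links microvilli, at 14.9 and 14.0 against 7.50 and 7.58. Bdh1, which converts ketone bodies, was at 39.7 and 34.6 against 17.9 and 14.9 FPKM. These 4 genes passed limma voom, and their non-injured levels differed little between genotypes (log2 differences from -0.06 to 0.21). Of well expressed proximal tubule genes, Napsa, an aspartic protease, was at 806 and 663 against 354 and 309 FPKM, Tcn2, the carrier of vitamin B12, at 502 and 435 against 259 and 188, and Ass1, which makes argininosuccinate, at 296 and 301 against 156 and 102. All 3 passed. In a bulk sample fewer cells of a type and less RNA per cell cannot be told apart.

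Markers of each tubule segment were lower in the injured KO. Of 40 transporter and brush border genes of the proximal tubule, all of which passed the filter on low values, 34 had values below 0 and 29 were separated on the lower side against 1 on the higher side. The median log2 difference was -0.56, beside -0.00 over all genes tested, and 10 passed limma voom, 0 of them higher. The phosphate carrier Slc34a1 was at 698 and 628 against 405 and 289 FPKM and passed. The endocytic receptor Lrp2 (megalin) was at 109 and 93.0 against 77.7 and 45.5 FPKM and did not pass. Of organic anion transporters, Slc22a6 was at 68.1 and 59.5 against 38.0 and 25.4 FPKM and Slc22a8 at 131 and 99.6 against 55.7 and 30.8, and both passed. Miox, an inositol oxygenase found almost only in the proximal tubule, was at 1165 and 943 against 636 and 422 FPKM and passed. Summed over the list, expression was 4972 and 4447 FPKM in WT and 3299 and 2544 in the injured KO, against 8148 to 8668 in the 4 non-injured libraries.

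Genes of the thick ascending limb had the lowest median of all lists. All 14 of the 15 members that passed the filter had values below 0, 13 were separated and 6 passed, with a median of -0.91. Slc12a1, the furosemide-sensitive cotransporter, was at 307 and 240 against 151 and 89.6 FPKM and did not pass (limma voom adjusted p = 0.0561). Umod, the most abundant urinary protein, differed less, 1452 and 1616 against 1094 and 894 FPKM, and did not pass. The phosphatase inhibitor Ppp1r1a was at 254 and 178 against 81.4 and 55.1 FPKM, and the prostaglandin receptor Ptger3 at 14.5 and 12.7 against 5.61 and 4.48. Both passed.

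Further along the nephron the lists moved the same way. Of 14 genes of the distal convoluted and connecting tubule, 13 had values below 0 (median -0.45), 10 were separated lower and 2 passed lower. Slc12a3, the thiazide-sensitive cotransporter, was at 138 and 130 against 101 and 67.1 FPKM and did not pass. The exception was Trpv5, the calcium channel of the connecting tubule, at 4.56 and 5.99 against 10.4 and 10.2 FPKM, which passed on the higher side (limma voom adjusted p = 0.0362). Of 12 tested genes of principal cells 12 had values below 0 (median -0.66), 10 were separated and 5 passed. The water channel Aqp2 was at 444 and 266 against 117 and 178 FPKM, Aqp3 at 56.8 and 38.2 against 22.0 and 22.7, and the sodium channel subunit Scnn1a at 38.2 and 33.9 against 18.0 and 11.9, and all passed. Of 14 genes of intercalated cells 14 had values below 0 (median -0.76), 11 were separated and 4 passed. Besides Slc4a1, the proton pump subunit Atp6v1c2 was at 13.3 and 10.7 against 6.33 and 4.68 FPKM and Aqp6 at 35.9 and 27.1 against 15.7 and 15.0. Both passed.

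Markers of glomeruli and vessels differed less. Of 12 tested podocyte genes 5 lay above and 7 below 0 (median -0.11) and 0 passed. Of 18 endothelial genes 16 lay below 0 (median -0.15), 8 were separated lower and 0 passed. Pecam1 was at 12.5 and 10.7 against 11.3 and 11.5 FPKM, while Plvap of fenestrated capillaries was at 124 and 106 against 68.2 and 89.4 and did not pass. Ren1 (renin), counted with fibroblasts, pericytes and smooth muscle, was at 33.4 and 42.9 against 19.2 and 15.5 FPKM and did not pass (limma voom adjusted p = 0.0584). It was the lowest member of a list that lay mostly higher. Of the 16 tested genes of that list 13 lay above 0 (median 0.24), 8 were separated higher and 3 lower, and 1 passed higher.

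**Figure D3:**
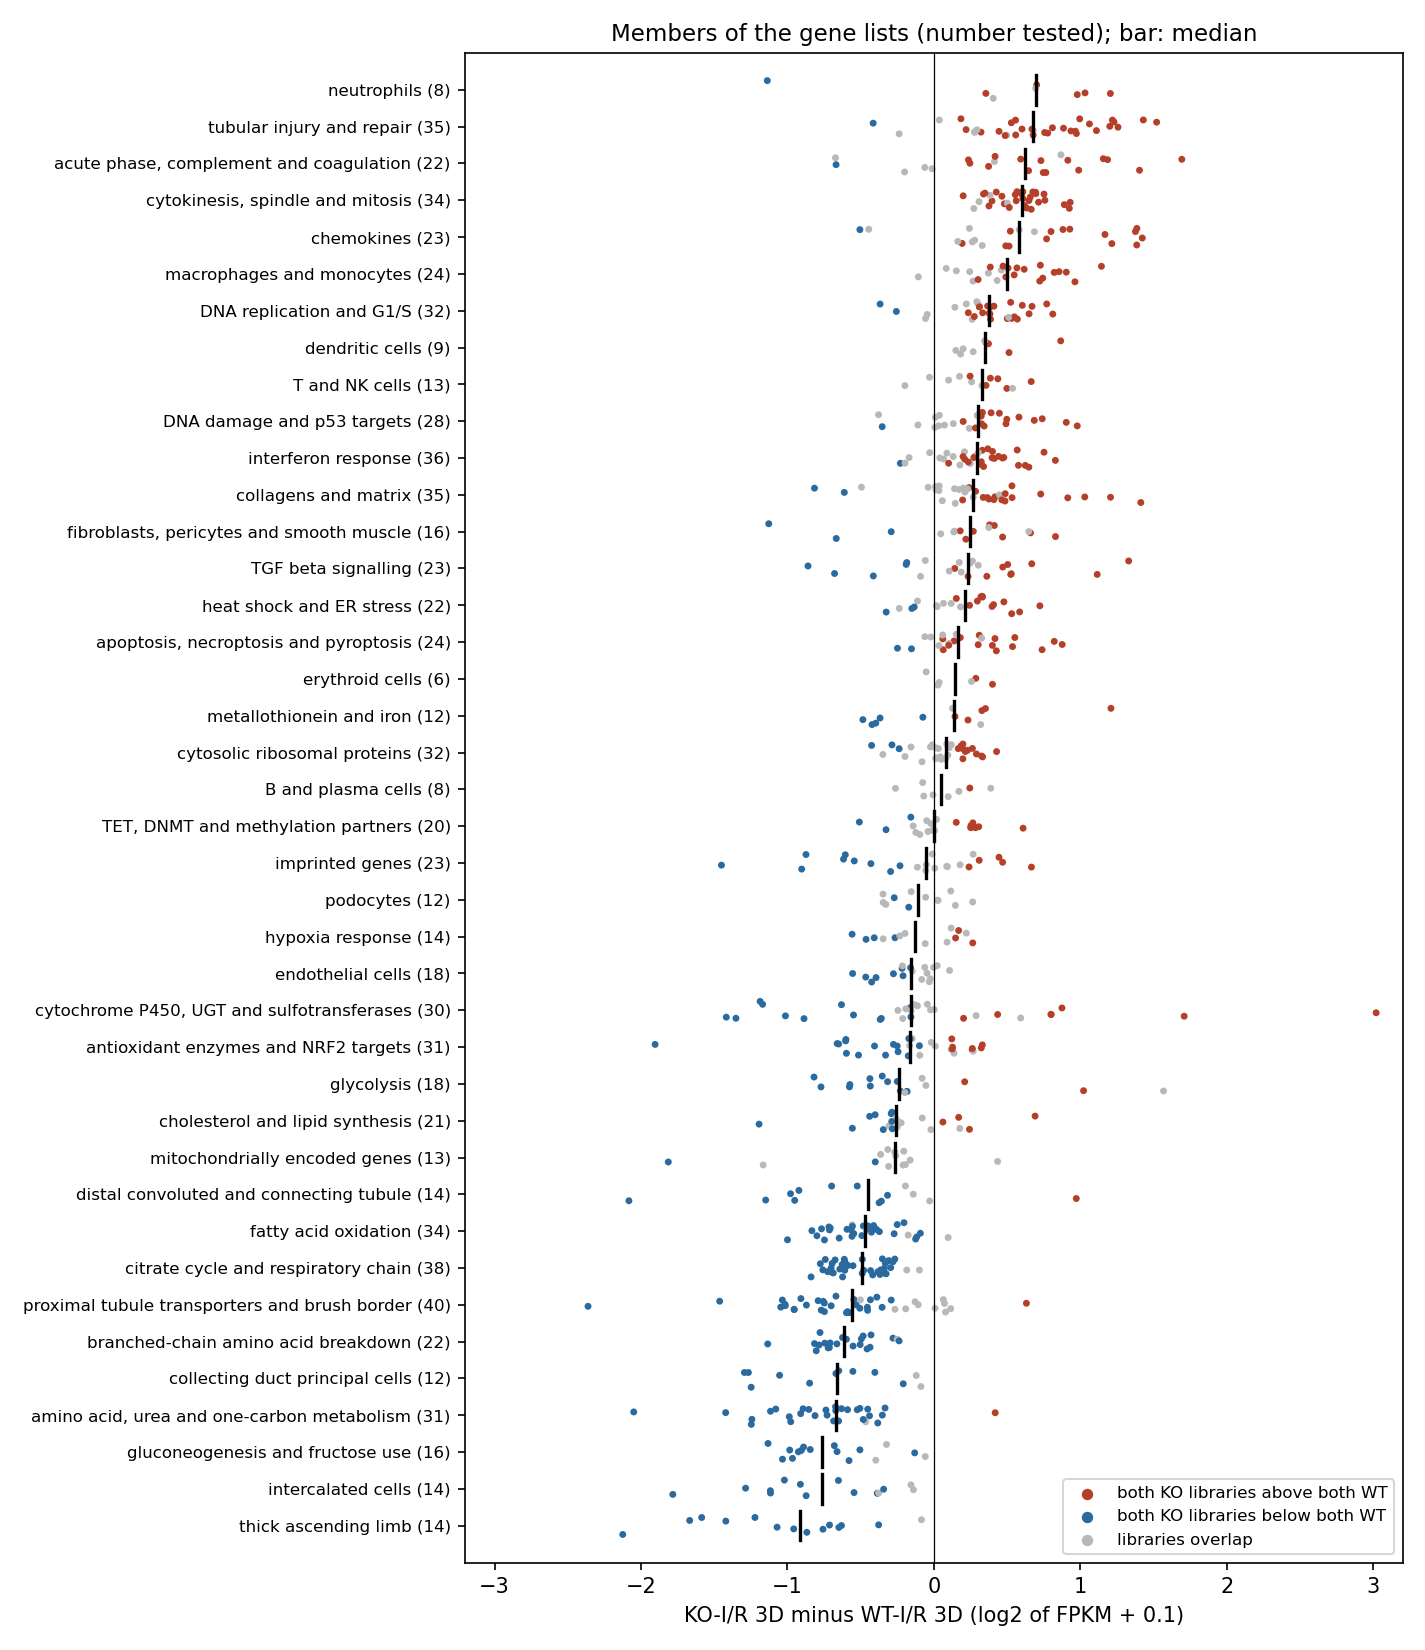
Each row is a gene list with the number of its members tested, each point a member at its difference between injured KO and WT in log2(FPKM + 0.1), and each bar the median. Tubule segments and metabolism lie at the bottom, with most points blue (both KO libraries below both WT). Injury, mitosis, chemokine and myeloid lists lie at the top with most points red.

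Enzymes of energy and amino acid metabolism were lower along with the markers of the tubule segments. All 38 genes of the citrate cycle and respiratory chain had values below 0, 36 were separated and 11 passed, with a median of -0.49. Uqcrc1, of complex III, was at 108 and 102 against 62.4 and 55.2 FPKM, and Ogdh, of the citrate cycle, at 82.8 and 82.6 against 50.4 and 46.2. Both passed. Cox4i1, of complex IV, was at 588 and 535 against 334 and 360 FPKM and passed. The 13 genes encoded on mitochondrial DNA itself had a median of -0.27, but 2 were separated lower, a smaller share than over all genes, and 0 passed. Their median fell by 0.34 from WT pool 1 to WT pool 2 and by 0.42 from KO pool 1 to KO pool 2, and was 0.10 higher in KO pool 1 than in WT pool 2, with mt-Co1 at 14320 and 12450 against 13350 and 9972 FPKM.

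Of 34 tested genes of fatty acid oxidation 33 had values below 0 (median -0.47), 30 were separated lower and 4 passed. Acaa1b, a peroxisomal thiolase, was at 118 and 138 against 66.8 and 61.0 FPKM and passed. Ehhadh, the bifunctional enzyme of peroxisomes, was at 103 and 80.2 against 58.8 and 44.2 FPKM and did not pass (limma voom adjusted p = 0.0501), nor did Acadm, the medium-chain dehydrogenase, at 192 and 132 against 112 and 78.1. The receptor Ppara, which switches these genes on, was at 5.53 and 5.46 against 4.33 and 3.47 FPKM, separated and not passed. All 16 genes of gluconeogenesis and fructose use had values below 0 (median -0.76), 13 were separated and 6 passed. Sord, of the fructose pathway, was at 337 and 315 against 189 and 143 FPKM and Pcx (pyruvate carboxylase) at 64.2 and 51.2 against 29.7 and 26.3, both passed, and Pck1 at 395 and 329 against 253 and 134 did not.

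Breakdown of branched-chain amino acids showed the same in all 22 genes (median -0.61, 21 separated and 6 passed). Bckdha, the subunit that commits the branched chains to oxidation, was at 22.9 and 23.8 against 11.9 and 9.38 FPKM and passed. Of 31 genes of other amino acid, urea and one-carbon metabolism 30 had values below 0 (median -0.67), 29 were separated lower and 9 passed, Hpd and Ass1 among them. Dmgdh, of the choline to glycine path, was at 19.2 and 19.03 against 9.98 and 5.01 FPKM and passed. Glycolysis was mixed. Of 18 genes 15 lay below 0 (median -0.24) and 2 passed lower: Hk1, at 19.4 and 19.6 against 10.98 and 11.8 FPKM, and Pfkm, at 16.8 and 19.2 against 10.3 and 10.01. The inducible Hk2 was higher, 1.04 and 1.93 against 2.33 and 3.82 FPKM, and Ldha was at 177 and 196 against 202 and 230, and neither passed.

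The study followed the superoxide dismutases and catalase, enzymes that remove reactive oxygen. Its genes were picked with these libraries at hand, so their direction here is no independent evidence. By other assays the study reported lower Sod1, Sod2 and Cat mRNA (qPCR) in the injured KO. It also reported lower Sod1 and Sod2 protein, lower SOD activity and more promoter methylation of Sod1 and Sod2 (bisulfite sequencing). Sod1 was at 106 and 92.3 FPKM in WT against 62.1 and 68.1 in the injured KO, and Sod2, the mitochondrial form, at 25.9 and 22.0 against 16.8 and 13.7. The extracellular Sod3 was at 124 and 130 against 81.9 and 78.6 FPKM and Cat at 211 and 194 against 152 and 118. The 4 genes were separated on the lower side and none passed limma or limma voom on all libraries, where the limma voom adjusted p was 0.233, 0.0592, 0.0929 and 0.0716 in that order. With the injured libraries alone all 4 passed limma voom, at an adjusted p of 0.0283, 0.0312, 0.0171 and 0.0474. Limma itself called Sod1 and Sod3 when KO-NI 1 (adjusted p = 0.0422 and 0.0298) or KO-NI 2 (0.0406 and 0.0291) was left out, and not Sod2 or Cat. Their differences (log2 from -0.60 to -0.66) were about those of the proximal tubule and respiratory chain lists. Of the 31 tested antioxidant enzymes and NRF2 targets as a whole, 20 lay below 0 and 11 above (median -0.16, and -0.03 with TPM). Of them 16 were separated lower and 7 higher, and Gpx6 alone passed. Gpx3, the most abundant of them, was at 9713 and 9212 against 7094 and 6176 FPKM.

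Because Tet1 acts on CpG, the bases just upstream of the start were set beside the expression data for genes at both ends. The windows are of 250 bases before the RefSeq start (assembly GRCm38.p6, written 5′ to 3′ on the gene's strand), with each CG in capitals. CG reads the same on both strands. Sod1 (chr16:90220512-90220761, plus strand, 26 CG), Sod2 (chr17:13007589-13007838, plus strand, 15 CG) and Hpd (chr5:123182724-123182973, minus strand, 7 CG) stand for lower genes with CG, Egf (chr3:129755323-129755572, minus strand) for a lower gene with none, and Havcr1 (chr11:46739973-46740222, plus strand, 3 CG) and Sprr2f (chr3:92364937-92365186, plus strand, 2 CG) for higher genes.
Sod1: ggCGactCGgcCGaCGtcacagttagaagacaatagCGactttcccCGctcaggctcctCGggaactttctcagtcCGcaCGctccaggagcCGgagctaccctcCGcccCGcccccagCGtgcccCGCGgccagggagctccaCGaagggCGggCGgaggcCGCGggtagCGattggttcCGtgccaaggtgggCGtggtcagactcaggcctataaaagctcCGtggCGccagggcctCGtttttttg
Sod2: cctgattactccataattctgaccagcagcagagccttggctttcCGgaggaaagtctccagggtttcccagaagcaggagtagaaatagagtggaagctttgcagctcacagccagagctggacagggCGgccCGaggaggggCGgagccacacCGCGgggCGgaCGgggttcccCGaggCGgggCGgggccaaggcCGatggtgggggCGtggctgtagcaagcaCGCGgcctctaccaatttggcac
Hpd: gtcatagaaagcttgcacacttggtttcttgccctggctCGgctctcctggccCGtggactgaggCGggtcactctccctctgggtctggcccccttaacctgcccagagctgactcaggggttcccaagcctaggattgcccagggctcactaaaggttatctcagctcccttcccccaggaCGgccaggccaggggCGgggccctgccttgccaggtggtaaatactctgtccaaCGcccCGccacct
Egf: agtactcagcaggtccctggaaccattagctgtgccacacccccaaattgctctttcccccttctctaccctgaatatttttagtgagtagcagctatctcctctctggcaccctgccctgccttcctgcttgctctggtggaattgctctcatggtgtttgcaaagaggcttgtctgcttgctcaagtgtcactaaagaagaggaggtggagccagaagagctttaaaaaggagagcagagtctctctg
Havcr1: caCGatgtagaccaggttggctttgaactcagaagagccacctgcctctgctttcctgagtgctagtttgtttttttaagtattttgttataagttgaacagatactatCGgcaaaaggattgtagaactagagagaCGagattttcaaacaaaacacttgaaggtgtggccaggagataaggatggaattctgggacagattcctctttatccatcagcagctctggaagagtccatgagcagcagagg
Sprr2f: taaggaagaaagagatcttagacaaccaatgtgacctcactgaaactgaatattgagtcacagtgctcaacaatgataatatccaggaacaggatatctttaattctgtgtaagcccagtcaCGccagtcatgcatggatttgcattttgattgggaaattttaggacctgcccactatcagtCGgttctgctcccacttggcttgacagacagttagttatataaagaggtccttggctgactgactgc
Of the 10549 genes tested with a window, 98.7% held at least 1 CG, the median number was 15, and 71.1% held at least 10. Among the 630 genes separated on the higher side by over 0.5 in log2, 52.4% held at least 10 (median 10), and among the 1010 on the lower side 53.8% (median 11). Genes that differed in either direction thus had fewer CG than the rest, and the directions were alike. By the number of CG, the median difference was -0.00 with up to 4, -0.03 with 5 to 9, -0.01 with 10 to 19 and 0.02 with 20 or more. A CG here is a letter count. Methylation was not measured in these files.

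Injury genes of the tubule lay on the other side. Of 35 tested genes of tubular injury and repair 33 had values above 0 (median 0.68), 27 were separated higher and 1 lower, and 6 passed higher. Spp1 (osteopontin), the most abundant of them, was at 4177 and 6703 against 11380 and 13000 FPKM and passed (log2 difference 1.20, standard error 0.26). Havcr1 was at 130 and 224 against 375 and 426 FPKM and passed, and Lcn2 at 42.9 and 62.0 against 77.5 and 137 and did not. Atf3, a stress transcription factor, was at 3.88 and 7.21 against 13.4 and 12.2 FPKM and passed, as did Myc at 6.48 and 10.3 against 14.2 and 18.3. Keratin 18 (Krt18) was at 42.7 and 50.4 against 63.1 and 97.4 FPKM, Clu (clusterin) at 218 and 416 against 499 and 696, and Vcam1, which marks tubule cells that fail to recover, at 12.8 and 23.5 against 32.3 and 31.9. None of these 3 passed.

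Cell division genes were higher as well. All 34 genes of mitosis had values above 0 (median 0.60), 30 were separated and 1 passed, Cdk1, the kinase that starts mitosis, at 3.70 and 5.81 against 9.08 and 8.78 FPKM. Ccnb1 was at 3.99 and 5.07 against 8.82 and 6.12 FPKM and Mki67 at 6.61 and 9.09 against 13.7 and 11.2, and neither passed. Of 32 tested genes of replication and the G1/S step 28 lay above 0 (median 0.38), and Pcna, the clamp of the polymerases, at 23.9 and 27.7 against 39.6 and 38.6 FPKM, was the one that passed. Ccnd1 was at 24.9 and 31.0 against 23.7 and 22.8 FPKM. The mitosis list was as much higher without injury (median 0.62) at far lower levels, its sum being 20.03 and 25.4 against 31.4 and 41.6 FPKM there, and 120 and 166 against 220 and 201 in the injured kidneys.

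Of p53 targets and damage genes 25 of 28 lay above 0 (median 0.30) and 0 passed. The cell cycle inhibitor Cdkn1a was at 9.23 and 12.7 against 14.3 and 17.9 FPKM and Pmaip1 (Noxa) at 7.34 and 11.5 against 18.4 and 16.2. Cell death genes differed little, 20 of 24 above 0 with a median of 0.17 and 0 passed. Bax, which opens the outer mitochondrial membrane, was at 34.2 and 35.0 against 30.6 and 40.9 FPKM, and its opponent Bcl2 at 1.96 and 1.88 against 2.09 and 2.15. The inflammatory caspases stood out among them, Casp1 at 1.40 and 1.21 against 2.12 and 2.36 FPKM and Casp4 at 1.55 and 2.25 against 3.01 and 4.09, and did not pass.

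Chemokines and markers of myeloid cells were higher, unevenly. Of 23 tested chemokines 21 lay above 0 (median 0.58), 14 were separated higher, and 4 passed: Cxcl5, which draws neutrophils, at 1.92 and 2.88 against 5.08 and 7.86 FPKM, and the monocyte and macrophage chemokines Ccl7 at 2.62 and 2.85 against 5.80 and 6.78, Ccl6 at 8.26 and 9.86 against 14.8 and 16.9, and Ccl9 at 4.89 and 5.24 against 8.02 and 9.43. All 4 are genes the study names, picked with these libraries at hand, so their direction here is no independent evidence. Ccl2, the main chemokine for monocytes, overlapped at 9.04 and 14.0 against 13.2 and 15.2 FPKM. Of 24 tested macrophage and monocyte markers 23 lay above 0 (median 0.50), 16 were separated and 2 passed, the mannose receptor Mrc1 and Ccr2, the receptor for Ccl2, which was at 4.51 and 5.12 against 8.54 and 9.66 FPKM. Single markers differed. Csf1r was at 22.9 and 25.8 against 20.7 and 24.6 FPKM and Cd68 at 19.7 and 19.3 against 17.1 and 24.9, with overlapping groups, and Adgre1 (F4/80) was separated at 7.28 and 8.20 against 9.39 and 14.1. The summed level of the list was 794 and 885 FPKM in WT and 916 and 1410 in the injured KO, so KO pool 2 alone stood well above.

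Other leukocytes were close to the limit of the data. Of 15 neutrophil markers 8 passed the filter, 5 of them separated higher and 1 lower. Ly6g was at 0 in both injured KO pools and at no more than 0.0576 FPKM in the injured WT, and S100a9 overlapped at 4.57 and 7.07 against 6.15 and 9.29 FPKM. The one lower gene of the neutrophil list was Hdc, which makes histamine, at 13.2 and 6.97 against 5.31 and 3.50 FPKM, and lower in KO-NI too. Hdc stood at 9.99 and 5.72 FPKM in WT-NI, where Ly6g was at 0, so its level need not be that of neutrophils. Of 20 T and NK cell markers 13 passed the filter and 6 were separated higher (median 0.33). Cd3e lay at 0.571 and 0.426 against 0.717 and 0.801 FPKM, below the filter. Of B and plasma cell markers 8 of 15 passed it (median 0.05), Ms4a1 was under 0.1 FPKM throughout, and Igkc was at 359 and 355 FPKM in the injured WT but at 628 and 184 in the injured KO. None of the T, NK, B or neutrophil markers passed.

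Interferon genes were higher in 32 of 36 tested (median 0.30), 23 separated and 0 passed. Iigp1, an interferon-induced GTPase, was at 4.20 and 4.07 against 7.29 and 7.56 FPKM and Gbp2 at 14.7 and 18.8 against 25.3 and 31.0. In non-injured kidneys the list lay lower in the KO (median -0.30), as did dendritic cell (-0.45) and neutrophil markers (-0.58). Of 22 tested acute phase, complement and coagulation genes 17 lay above 0 (median 0.62) and 4 passed, among them Lif and Osmr. Serpina3n was at 10.7 and 10.6 against 14.6 and 55.0 FPKM, where KO pool 2 set the difference, and it did not pass. Il6 was at no more than 0.260 FPKM in any library.

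Matrix genes differed by little. Of 35 collagen and matrix genes 31 lay above 0 (median 0.27), 18 were separated higher and 2 lower, and 2 passed higher and 1 lower. The one lower was Timp3, an inhibitor of matrix proteases. Lox, the collagen crosslinker, was among those higher, at 3.78 and 3.56 against 5.82 and 9.90 FPKM. Col1a1 overlapped at 56.6 and 68.1 against 62.5 and 78.2 FPKM and Col3a1 was at 50.1 and 65.5 against 80.9 and 112. Acta2, the actin of myofibroblasts, was at 45.1 and 50.8 against 53.7 and 62.0 FPKM and Tgfb1 at 9.01 and 11.6 against 9.60 and 13.8. Ccn2 (connective tissue growth factor) was at 23.8 and 30.2 against 45.1 and 40.3 FPKM and did not pass (limma voom adjusted p = 0.0624). Bmp7, known for opposing fibrosis in the kidney, was at 10.4 and 9.72 against 5.48 and 5.53 FPKM and passed on the lower side. Bmp7 belongs to the TGF beta list, whose 23 tested genes lay above 0 in 16 cases (median 0.23).

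The 2 pools of a genotype differed from each other along the same line as the genotypes. Of the 41 lists with at least 3 tested genes, 28 had a median difference over 0.2 in size. In 26 of them WT pool 2 lay on the side of the KO pools as seen from WT pool 1, and in 23 KO pool 2 lay farther from the WT pools than KO pool 1. The step between the nearer pools of the 2 genotypes, KO pool 1 minus WT pool 2, was also on the side of the genotype difference in 26, and it was the largest of the 3 steps in 12, among them principal cells (-0.52), gluconeogenesis (-0.44), branched-chain amino acids (-0.40), the citrate cycle and respiratory chain (-0.31), mitosis (0.47) and interferon genes (0.26). For the injury list the steps from WT pool 1 to WT pool 2, on to KO pool 1 and on to KO pool 2 were 0.53, 0.23 and 0.34 in log2, for proximal tubule genes -0.16, -0.32 and -0.49, and for the thick ascending limb -0.31, -0.59 and -0.38. The step between the genotypes was thus smaller than the larger of the steps within a genotype for the first 2 lists, and the largest of the 3 for the third. Of the 1148 genes separated higher by over 0.5 in log2, 502 followed the order WT pool 1, WT pool 2, KO pool 1, KO pool 2, and 825 of the 1673 lower ones. How much the extent of injury differed between pools, and its part in the differences between genotypes, was not tested.

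**Figure D4:**
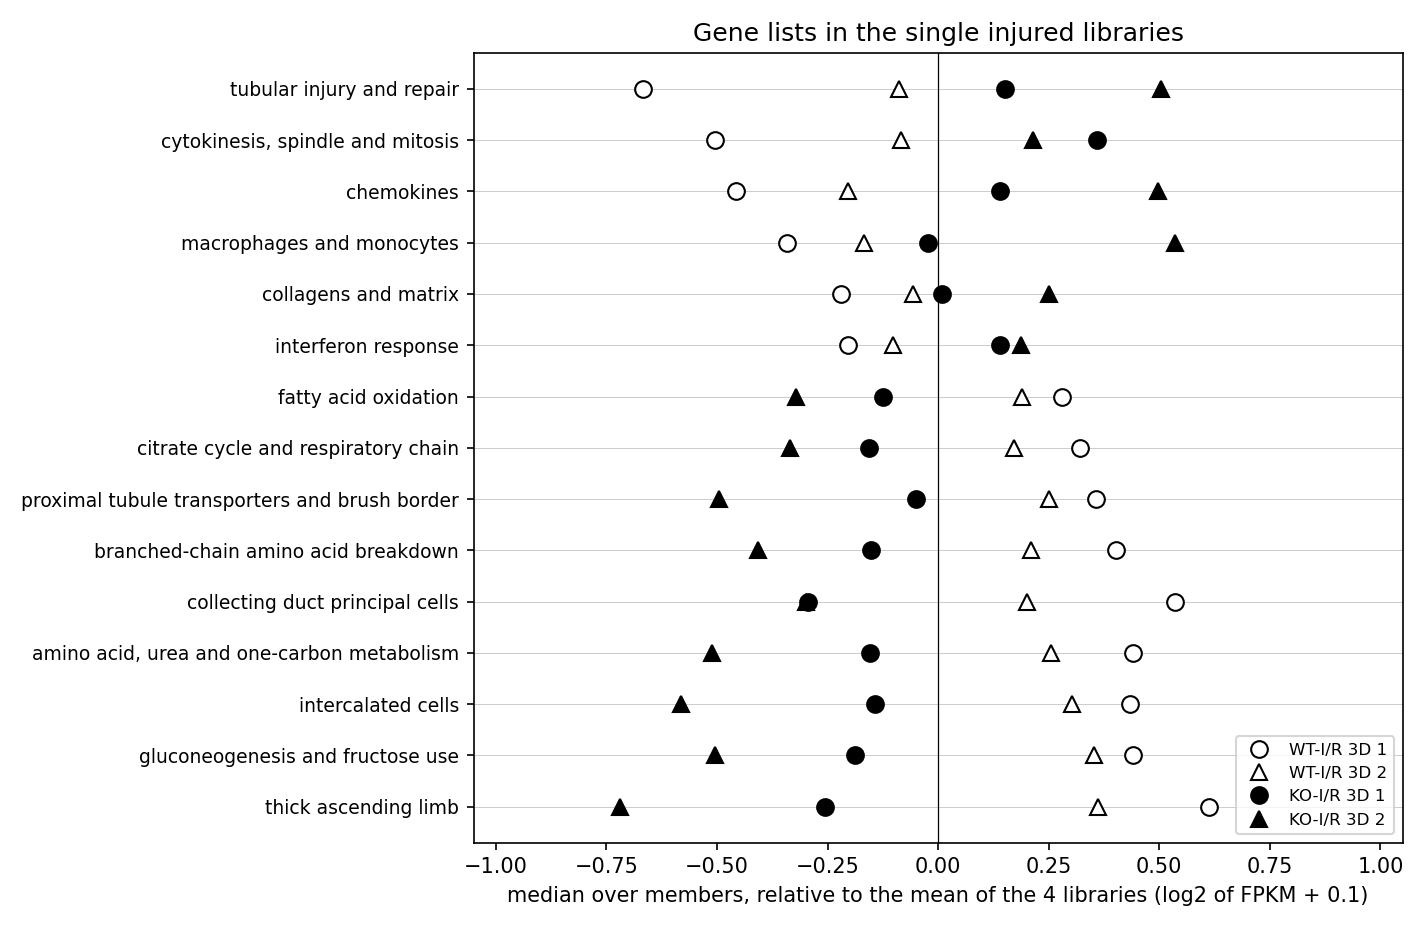
For 15 lists, the median over members of log2(FPKM + 0.1) in each injured library, after subtracting each gene's mean over the 4 libraries. Open symbols are WT-I/R 3D and filled ones KO-I/R 3D, and in most lists the pools of one genotype spread in the direction that separates the genotypes (the KO pools of mitosis genes do not), as for injury genes at -0.67 and -0.09 (WT) and 0.15 and 0.50 (KO).

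In non-injured kidneys the genotype difference of these lists was on the same side for 9 of the 28. Its size varied. The median was 0.62 for mitosis, as large as after injury, and -0.30 for T and NK cell markers, while proximal tubule (0.11), thick ascending limb (0.07), citrate cycle and respiratory chain (0.03) and injury lists (-0.11) lay near 0. Whether the genotype difference itself differed between injured and non-injured kidneys was tested gene by gene. Limma called 0 genes (smallest adjusted p = 0.390, 1567 at an unadjusted p under 0.05), so no gene was shown to have a difference particular to the injured kidneys. Without KO-NI 2 this count was 232, with KO-NI represented by KO-NI 1 alone, the library that stood apart, and its spread taken from the other groups.

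**Figure D5:**
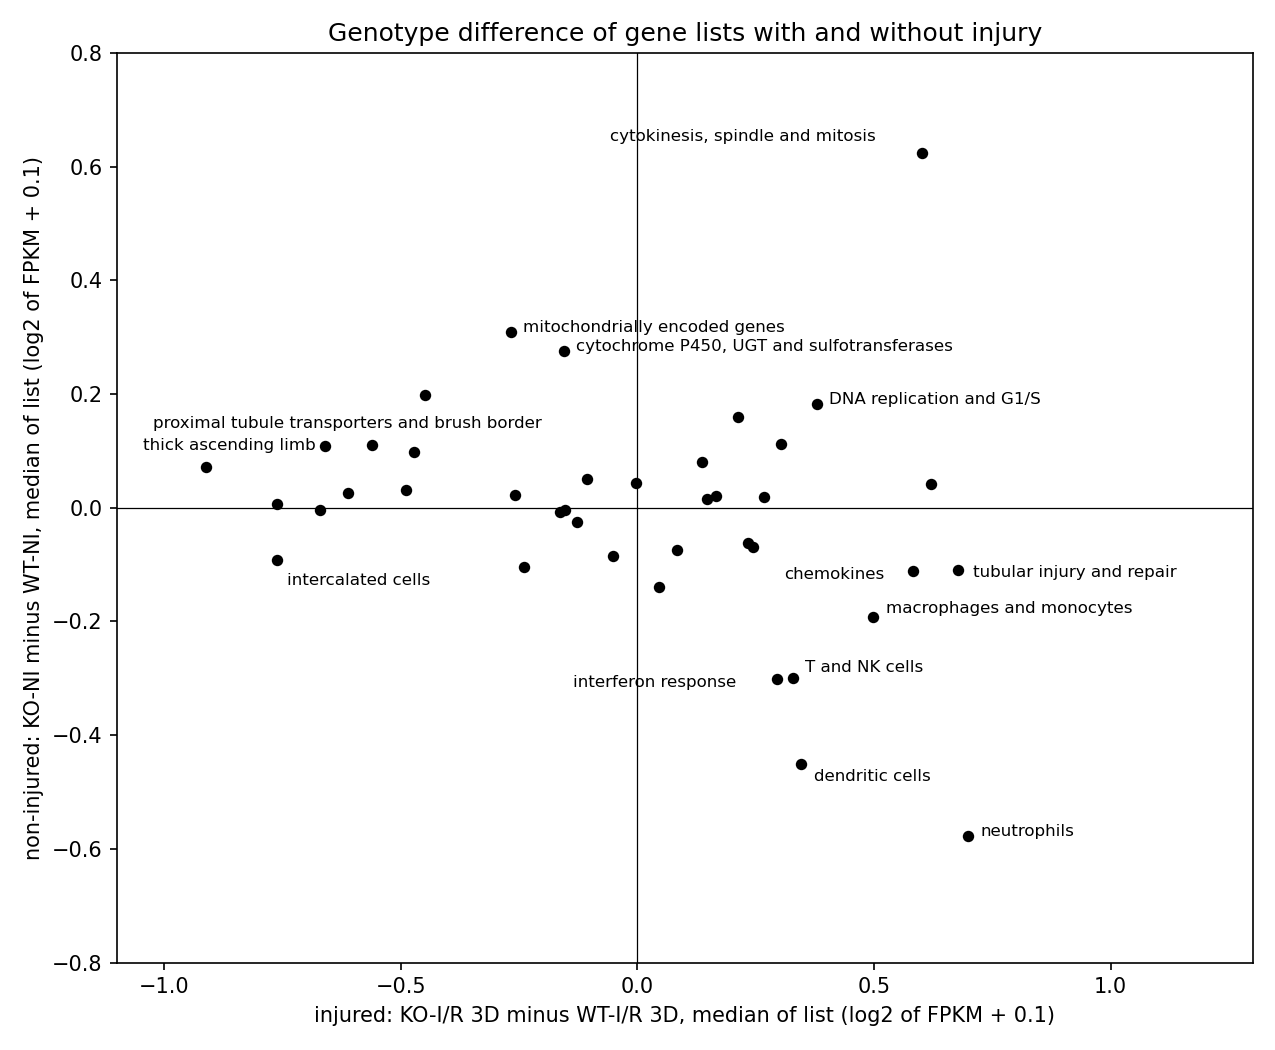
Each point is a gene list, with the median genotype difference in injured kidneys across and in non-injured kidneys upward, both in log2(FPKM + 0.1). Tubule segments and metabolism lie far left near the zero line of the vertical axis, mitosis lies high in both, and leukocyte lists lie right and below.

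Genes that differed between the genotypes in both states were looked for separately, as the 2 comparisons share no library. A separation on the higher side was seen in 17.7% of genes without injury and on the lower side in 17.2%. With a difference over 1 in log2 in both, 30 genes were higher and 31 lower, beside 15 and 16 with opposite directions. Of these 61 genes 30 had under 20 reads in every library, and 19 were coding. Besides Cyp4a12a and Cyp4a12b, Agmat, an agmatinase of mitochondria, was at 2.95 and 3.24 against 0.897 and 0.785 FPKM after injury and at 2.17 and 1.52 against 0.567 and 0.362 without it. It passed limma voom after injury (adjusted p = 0.0298). Plekhb1, a membrane protein with a pleckstrin homology domain, was at 5.40 and 5.42 against 2.25 and 2.15 FPKM and at 8.47 and 6.75 against 3.37 and 2.26. Cck, a peptide hormone, was at 16.8 and 9.15 against 3.30 and 4.79 FPKM and at 1.97 and 1.75 against 0.340 and 1.06. None of these passed limma without injury (smallest adjusted p = 0.294 among Agmat, Plekhb1 and Cck).

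The neighbours of Tet1 did not move as a block. Of 36 genes tested within 2 Mb of it on the chromosome, 11 were separated higher and 15 lower after injury, beside 28.0% and 29.5% of all genes, and the median difference was -0.08. Those lower included Hk1 (values above), Pbld2 (9.67 and 7.90 against 5.53 and 4.96 FPKM) and Gm5424 (177 and 131 against 95.5 and 65.0 FPKM). Gm5424 is listed as a processed pseudogene, and whether its reads come from a related gene elsewhere was not tested. The nearest neighbours on either side, Ccar1 at 12.3 kb (8.38 and 7.07 against 11.01 and 9.02 FPKM) and Slc25a16 at 11.6 kb (14.2 and 14.5 against 13.4 and 10.9 FPKM), lay on opposite sides, and neither passed. In both states 2 of the 36 were separated higher and 2 lower.

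Genes of DNA methylation and genes that it is known to silence showed no common shift. Of 20 tested TET, DNMT and partner genes 10 lay above and 10 below 0 and 0 passed. Tet2 overlapped at 6.03 and 4.56 against 6.65 and 3.90 FPKM, and Tet3 was at 3.41 and 3.48 against 2.91 and 3.26. Dnmt1 overlapped at 6.70 and 8.01 against 7.16 and 7.69 FPKM. The glycosylase Tdg, which removes oxidized methylcytosine, was at 3.31 and 3.22 against 1.75 and 2.92 FPKM and did not pass. Of 28 germline genes kept silent by promoter methylation 1 passed the filter, Sycp3, at 4.54 and 4.12 against 4.13 and 3.15 FPKM. Ddx4 stayed at or below 0.323 FPKM in all libraries. Of 23 tested imprinted genes 13 lay below and 10 above 0 (median -0.05), and 3 passed lower: Igf2, at 0.467 and 0.408 against 0.1002 and 0.0923 FPKM, the noncoding Peg13, at 6.40 and 6.85 against 3.60 and 3.38, and Slc22a18, at 195 and 172 against 111 and 90.2. Peg13 and Slc22a18 also lay lower without injury, Peg13 at 12.1 and 10.4 FPKM in WT-NI against 7.75 and 6.54 in KO-NI, and Slc22a18 at 316 and 335 against 267 and 313. Igf2 lay under 1 FPKM in every injured library and met the filter only through WT-NI, at 1.52 and 1.247 FPKM against 0.992 and 0.980 in KO-NI. Its lower level in KO-NI therefore carries no weight.

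Drug-metabolizing enzymes went both ways. Of 30 P450, UGT and sulfotransferase genes 20 lay below 0 and 10 above (median -0.16, and -0.02 with TPM). On the lower side 12 were separated and on the higher side 7, beside 29.5% and 28.0% of all genes. In each direction 4 passed. Ugt1a2, a glucuronosyltransferase, was at 95.4 and 63.2 against 38.8 and 21.7 FPKM and passed, beside the higher Cyp4a12a, Ugt2b37 and Cyp1b1. Heat shock and ER stress genes lay slightly higher (17 of 22, median 0.21, 0 passed), hypoxia targets near 0 (median -0.13) and lipid synthesis lower (median -0.26), with Scd1, the stearoyl-CoA desaturase, at 95.6 and 83.7 against 44.8 and 34.0 FPKM as the one that passed. Cytosolic ribosomal proteins lay near 0 (median 0.08, 23 of 32 above).

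The libraries also differed by base composition. Over 5 equal bins of genes by the GC share of their transcripts, the median difference ran from 0.21 in the lowest to 0.09, -0.02, -0.11 and -0.16 in the highest, and KO-NI against WT-NI ran the same way, from 0.22 to -0.24. With trends on GC share and gene length taken out of each library, the medians of all 28 lists kept their side, as they did with TPM. Some medians changed by over 1.5 times with TPM. Among lower lists, that of glycolysis shrank to -0.11, of lipid synthesis to -0.13, of mitochondrially encoded genes to -0.13 and of endothelial markers to -0.02. The smaller medians of antioxidant enzymes and NRF2 targets and of P450, UGT and sulfotransferase genes shrank to -0.03 and -0.02. Those of podocyte markers and hypoxia targets changed sign, to 0.03 and 0.005. Among higher lists, that of heat shock and ER stress grew to 0.35, of fibroblasts, pericytes and smooth muscle to 0.38 and of TGF beta to 0.37.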

How the data were processed

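RNA was measured in 8 libraries, 2 for each of 4 groups, each from pooled RNA of 3 mice. Per the labels, mRNA was captured with poly-T and reads were aligned with HISAT2 version 2.0.5 (build mm10, GRCm38.p6, in the submitters' processing notes); no counter is named in the sources read. The authors deposited 1 table of FPKM values for 55919 genes. FPKM multiplied by gene length and by 1 divisor per library, found from the low values, gave whole reads for 100% of values (tolerance 0.001), and the authors had scaled the libraries against each other. Genes that reached 1 FPKM in 2 or more libraries were tested on log2(FPKM + 0.1) with limma 3.58.1 (R 4.3.3), using 4 group means, a variance trend and Benjamini-Hochberg adjustment; a call needed an adjusted p under 0.05 and a log2 difference over 0.5. Limma voom was run on the recovered reads of genes with at least 10 reads as an alternative. The limma fit was tested on simulated data, and limma voom was not. Pools, not mice, are the replicates, and p-values rest on the spread between pools, shared over all groups of a fit.

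Genes were named by rule: the 12 largest separated coding genes in each direction, the 8 smallest p, the 6 smallest limma voom p, the study's genes, up to 4 separated and 2 most abundant members of each list, genes near Tet1 and genes differing in both states. Other list members, defining cell markers, Plekhb1 and the window genes were chosen after their values were seen. Members and lists were chosen with earlier results of these data known. Alternatives changed the pseudocount, filter, scaling, variance model, libraries and replicate numbers. Trends on GC share and length were removed as a check added after seeing the data. Gene positions in the table were used only as distances. Promoter windows are from RefSeq. Some genes are not reported here.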

Additional observations from a re-analysis of the deposited data

Results flagged for a closer look

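The genotype difference in injured kidneys was set against that in non-injured kidneys, gene by gene, and in 5 genes named above the KO pools lay wholly on opposite sides of the WT pools in the 2 states, by over 0.5 in log2 in each. None passed adjustment in limma, each at an adjusted p = 0.39. Many of the named genes were picked by their injured values. Over all 15650 genes tested, 520 were separated higher after injury and lower without it, and 585 the reverse, at any size of difference. At over 1 in log2 in both states these were 15 and 16. The count over all genes at over 0.5 is not given here, so the 5 genes cannot be weighed against it. The difference of the differences, in log2, was 1.88 (standard error 0.38) for Ccl9, 2.21 (0.41) for Atf3, 2.06 (0.52) for Havcr1 and 2.45 (0.56) for Lsm5, and -2.88 (0.73) for Lypd2. For Ccl9, Atf3, Havcr1 and Lsm5 the KO was the higher after injury and the lower without it, and for Lypd2 the reverse.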

How the results depend on the processing

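Each group has 2 pools, and genes under 1 FPKM carry few reads. The count of genes called higher was 28 with no filter, 2 with no variance trend, 90 with library weights, 87 with limma voom and 294 with limma voom on the injured libraries alone; lower, it was 31 with no filter, 543 with library weights, 298 with limma voom and 770 with limma voom on the injured libraries alone. Leaving out 1 library gave 0 to 111 called higher and 0 to 551 lower. At an unadjusted p under 0.05, higher genes numbered 1517 with no filter, 1982 with TPM, 1445 with only the injured libraries, 1474 with weights, 1587 with limma voom and 1973 with limma voom on the injured libraries; lower genes numbered 1009 with TPM. Leaving out 1 library gave 331 to 1684 higher and 925 to 2579 lower. Separated genes over 0.5 in log2 numbered 671 higher with a pseudocount of 1, 2646 with no filter, 2089 with TPM and 1765 with limma voom, and 2753 lower with no filter; leaving out 1 library gave 1126 to 1696 higher and 1643 to 2285 lower. The test of the difference between states called 4 genes with no variance trend and 0 to 232 with 1 library left out. The cause of these shifts was not tested.

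The replicate numbers mark no shared source in the labels, with correlations of 0.0273 to 0.173 between same-numbered deviations. With a replicate block, limma called 0 genes higher and 0 lower, and 994 and 1927 at an unadjusted p under 0.05.

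Of 820 medians of the gene lists over all settings, 63 moved by more than the spread between pools and 15 took the opposite sign. Of 2718 values of 136 named genes, 20 took the opposite sign from the value reported, none of them past the thresholds and all of genes with small differences. With TPM the log2 difference was 0.027 for Csf1r, 0.065 for Igkc, 0.109 for Pecam1 and 0.092 for Tet2. With the length trend removed it was -0.0070 for Dnmt1 and 0.074 for Igkc, and with GC share and length trends removed 0.0042 for Csf1r, 0.051 for Igkc and 0.015 for Pecam1. With 1 library left out it ran from -0.18 to 0.24 for Bax, -0.18 to 0.35 for Cd68, -0.23 to 0.018 for Csf1r, -0.11 to 0.14 for Dnmt1, -0.95 to 0.81 for Igkc, -0.13 to 0.085 for Pecam1, -0.42 to 0.34 for Tet2 and -0.087 to 0.43 for Tgfb1.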
